A study of Mus musculus with 15 samples.

Results

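Gene expression was compared between 6 medulloblastomas, tumours of the cerebellum, out of a series of 15 arrays. The first group held the 3 tumours labelled R-type from mice given 1.5 Gy of X-rays (MB10, MB11 and MB12), and the second the 3 tumours labelled S-type from nonirradiated mice (MB1, MB2 and MB3). They were taken by these labels alone, as the highest dose and no dose in the series. All 6 mice were female, heterozygous for Ptch1 (Ptch1+/-) and of the C3B6F1 background, so that no group here has an intact Ptch1 genotype. The irradiated mice had been exposed on postnatal day 1, and mice were followed until moribund. Ages are given in the labels without a unit, and were 87, 101 and 103 for the R-type 1.5 Gy mice, against 160, 173 and 172 for the S-type 0 Gy mice. Type, dose and age therefore all separate these 6 tumours in the same way and cannot be told apart within them. A further 6 tumours share no array with this comparison, R-type after 0.2 Gy (MB7, MB8 and MB9) and S-type after 0.2 Gy (MB4, MB5 and MB6), and serve below as the same type contrast at 1 dose. Their ages were 127, 106 and 113 in R-type and 128, 133 and 135 in S-type, so age separates that contrast as well, and MB6 was the 1 male. The other 3 arrays held normal cerebella of females with age labels of 103, 103 and 113, for which no strain or genotype is given. Each tumour was 1 mouse and 1 array.

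Patched1, the product of Ptch1, is the receptor that holds the sonic hedgehog pathway off. When it is lost, Smoothened signals without ligand, GLI transcription factors stay active, and granule neuron precursors of the young cerebellum keep dividing, which is the known route to medulloblastoma in this mouse. The published account of this model assigns the type from how the remaining Ptch1 allele is lost along chromosome 13, so that signal on that chromosome is not independent of the labels.

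Signals are given as log2 values scaled by the 75th percentile of each array, with the R-type tumours in the order MB10, MB11, MB12 and the S-type tumours in the order MB1, MB2, MB3. Of the probes, 60.9% to 62.1% were well above background in the R-type 1.5 Gy arrays and 59.1% to 65.5% in the S-type 0 Gy arrays. Pairs of arrays correlated at 0.985 to 0.9889 within the R-type 1.5 Gy group, at 0.9768 to 0.983 within the S-type 0 Gy group and at 0.9711 to 0.9833 between them. The R-type 1.5 Gy arrays all lay at position 4 of their slides and no other array did, so position and group cannot be told apart. Slide 1 held MB10 and MB2, and slide 2 held MB11 and MB3. Xist, the RNA made from the inactive X chromosome of female cells, had signals of 0.08, 0.66 and 0.98 in the R-type 1.5 Gy tumours, against −1.49, 1.23 and −4.25 in the S-type 0 Gy tumours. It was thus low in MB3, although the label of that mouse is female, and among the 0.2 Gy tumours labelled female it was low in MB9, at −4.09. The median of chromosome 6 genes also set the S-type tumours apart from each other, at 0.277 in MB3 and −0.22 in MB2 relative to their group mean.

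The label of the tissue was checked against markers of granule neuron precursors. Of 20 such genes, 18 were well above background on all 3 R-type 1.5 Gy arrays. Atoh1, the transcription factor that defines these precursors, had signals of 2.04, 2.24 and 1.90 in R-type 1.5 Gy tumours and 2.61, 1.54 and 3.15 in S-type 0 Gy tumours, while the 3 normal cerebella lay between −7.72 and −7.61. Every tumour was far above every normal cerebellum, and the tumour groups overlapped. Mki67, a marker of dividing cells, had 5.99, 5.89 and 5.80 in R-type 1.5 Gy tumours and 5.74, 5.47 and 5.79 in S-type 0 Gy tumours. These groups did not overlap, as was the case for 26% of all tested genes. The change of 0.23 (SE 0.361) did not pass (limma, adjusted p = 0.725). Its SE comes from a fit shared with the normal cerebella. They had −4.99, −4.52 and −3.06, and so differed more among themselves than the tumours of either group.

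Of 21661 tested genes, 2226 differed between R-type 1.5 Gy and S-type 0 Gy tumours (10.3%, limma with Benjamini-Hochberg adjustment at 0.05). Of these, 1101 were higher in the R-type 1.5 Gy tumours (5.08%) and 1125 were lower (5.19%). Changes of at least 2-fold were fewer among the higher genes, at 206, than among the lower ones, at 417. The median change over all tested genes was 0.02. The balance of directions depended on the scaling, since 49.5% of the calls were higher as given, 59.8% after normexp background correction, 61.6% after median centring and 12.5% with no scaling. The last 2 settings moved the median of all genes to 0.13 and −0.17. The number of calls rests on a spread pooled over 5 groups. With only the 6 arrays compared, 50 genes passed. Without MB11 the count was 1143, and it lay between 1497 and 2471 when any other of the 6 arrays was left out.

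The tumours at 0.2 Gy gave the same type contrast in other mice. There 1052 genes passed (4.86%), 420 higher and 632 lower in R-type. That count fell to between 298 and 458 without any one of MB4, MB5, MB6, MB7 and MB9, and was 943 without MB8. Of the 2226 genes called at the dose extremes, 2094 (94.1%) changed in the same direction at 0.2 Gy, against 72.2% of all tested genes. The genes called in both and in the same direction numbered 594, which is 26.7% of the list at the dose extremes and 56.5% of the list at 0.2 Gy, and none was called in opposite directions. Across the 2226 genes the changes at both dose settings correlated at 0.8, and across all 21661 genes at 0.528, over points that share the platform and the pooled fit. The difference between the type contrasts itself passed for 4 genes only (0.0185%, limma, with 1594 genes at an unadjusted p under 0.05), which are described with chromosome 13. That count was 0 without any one of MB4, MB5, MB6, MB7, MB9, MB11 and MB12, 2 without MB3, 8 without MB10, 9 without MB2, 14 without MB1 and 68 without MB8.

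**Figure D1:**
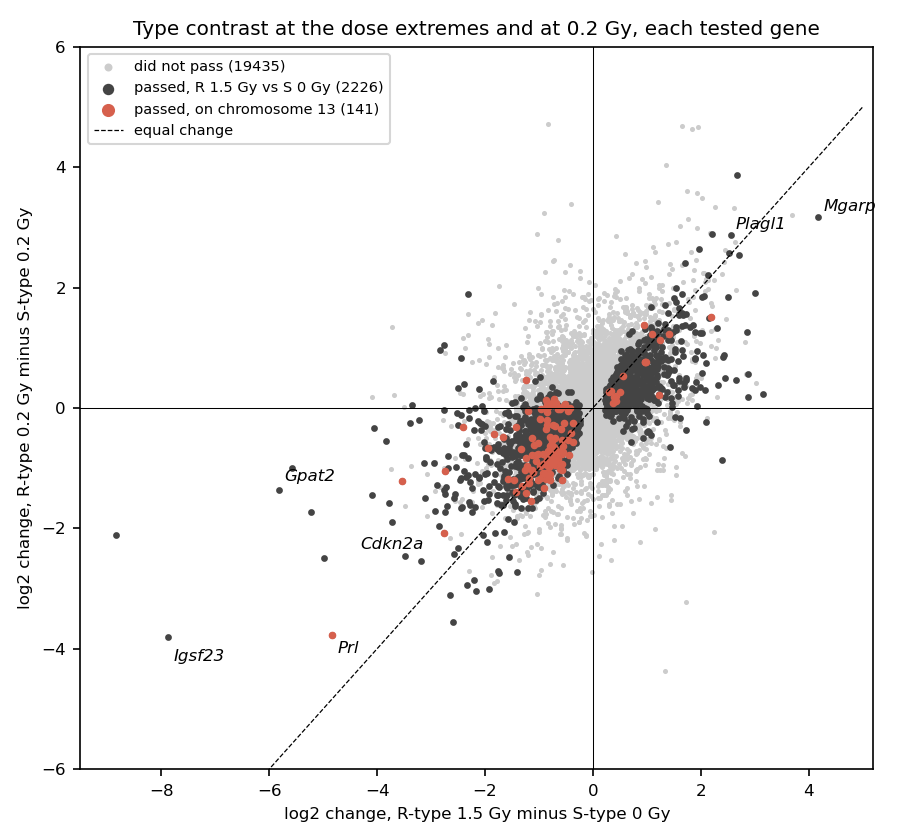
Each point is 1 tested gene, with its log2 change between R-type 1.5 Gy and S-type 0 Gy tumours on the horizontal axis and its change between R-type and S-type tumours at 0.2 Gy on the vertical axis. Of the 2226 genes that passed at the dose extremes, 2094 lie below 0 or above 0 on both axes, and the 141 of them on chromosome 13 are marked.

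Among the genes higher in the R-type 1.5 Gy tumours, Mgarp, a protein of the outer mitochondrial membrane that takes part in mitochondrial transport, showed the widest change. Its signals were 0.24, 1.78 and 1.38 in R-type 1.5 Gy tumours and −2.66, −3.36 and −3.12 in S-type 0 Gy tumours. The groups were far apart, with a change of 4.18 (SE 0.425, adjusted p = 0.000275), and differences of 3.60 and 4.89 within slides 1 and 2. At 0.2 Gy it changed by 3.17 (adjusted p = 0.002), and the normal cerebella lay from −2.64 to −1.93, below every R-type tumour. Plagl1, an imprinted zinc finger transcription factor, had 1.66, 1.42 and 1.48 in R-type 1.5 Gy tumours and −1.13, −0.54 and −1.43 in S-type 0 Gy tumours. Its change of 2.55 (SE 0.308, adjusted p = 0.000797) was close to the 2.88 at 0.2 Gy (adjusted p = 0.000508), and both its probes moved alike, by 2.55 and 2.93. In normal cerebella Plagl1 lay from 0.38 to 0.57, between these groups. Sfrp2, a secreted antagonist of WNT ligands, had 2.93, 3.33 and 3.30 in R-type 1.5 Gy tumours and 0.30, 1.19 and 1.18 in S-type 0 Gy tumours. It rose by 2.30 (SE 0.312, adjusted p = 0.00149).

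Other genes markedly higher in R-type 1.5 Gy than in S-type 0 Gy tumours act at the cell surface or on signals from it. Hrh3, the histamine H3 receptor, had 2.32, 2.32 and 1.85 in R-type 1.5 Gy tumours and 0.19, 0.88 and −0.81 in S-type 0 Gy tumours. It rose by 2.08 (adjusted p = 0.0103), with 0.31 at 0.2 Gy (adjusted p = 0.71). The normal cerebella had 2.13, 2.29 and 1.79, near the R-type 1.5 Gy tumours. Rgs13, which shortens G protein signals, rose by 2.85 (adjusted p = 0.00664), and Kcne1, an accessory subunit of potassium channels, was at least 2.57-fold higher, since it was not well above background in any S-type 0 Gy tumour (adjusted p = 0.00432). Such a bound sets the dim group at the lowest signal well above background on each array.

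A transcription factor of a neuronal lineage was also among the higher genes. Tlx3, a homeobox factor of excitatory neurons, had 0.08, −0.23 and −0.77 in R-type 1.5 Gy tumours and −2.80, −2.09 and −2.98 in S-type 0 Gy tumours. It rose by 2.32 (SE 0.274, adjusted p = 0.000713) here, while its change at 0.2 Gy was 0.39 (adjusted p = 0.436). The groups did not overlap.

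Enzymes and other proteins were also among the 15 highest. Cbs, cystathionine beta-synthase, Stac2 and Gstt4, a glutathione transferase, were at least 1.91-fold, 3.25-fold and 2.34-fold higher, as none was well above background in an S-type 0 Gy tumour (adjusted p = 0.000275, 0.00709 and 0.00416). In normal cerebella Cbs lay from −1.59 to −1.32 and Stac2 from −1.58 to −1.28, above all 6 tumours, while Gstt4 lay from −7.66 to −6.86. H3c1, a gene of histone H3 on chromosome 13, rose by 2.20 (adjusted p = 0.0047) and Ttc23 by 2.44 (adjusted p = 0.0227). Leaving out single arrays ended the call of Ttc23 in 4 of 6 fits.

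Among the lower genes, Igsf23, a protein of the immunoglobulin superfamily, had −7.78, −7.62 and −7.44 in R-type 1.5 Gy tumours and 0.14, −1.14 and 1.79 in S-type 0 Gy tumours. It was not well above background in any R-type 1.5 Gy tumour and was at least 48.1-fold lower there (adjusted p = 0.0022). Gpat2, a mitochondrial acyltransferase expressed mainly in the testis, had −3.52, −2.62 and −3.26 in R-type 1.5 Gy tumours and 2.90, 1.92 and 3.27 in S-type 0 Gy tumours. It fell by 5.82 (SE 0.687, adjusted p = 0.000708). At 0.2 Gy the groups overlapped, at −1.50, −0.69 and −3.03 in R-type and −1.47, −0.20 and 0.56 in S-type, with a change of −1.37 that did not pass (adjusted p = 0.272).

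Cdkn2a, which encodes the p16Ink4a inhibitor of cyclin-dependent kinases and the p19Arf activator of p53, had −2.77, −2.33 and −3.26 in R-type 1.5 Gy tumours and 0.97, 0.49 and 1.34 in S-type 0 Gy tumours. It fell by 3.72 (SE 0.418, adjusted p = 0.000523), with differences of −3.26 and −3.67 within slides 1 and 2. At 0.2 Gy the change was −1.89 (adjusted p = 0.0278), the only call among the 15 lowest genes there. In normal cerebella, Cdkn2a lay between −7.83 and −7.74, below all tumours. Cdkn2b, the neighbouring inhibitor gene for p15Ink4b, had −0.06, 0.18 and 0.31 in R-type 1.5 Gy tumours and 1.95, 1.50 and 1.58 in S-type 0 Gy tumours. It fell by 1.54 (SE 0.245, adjusted p = 0.00323). The next tested gene on that side, Dmrta1, a transcription factor with a DM domain, was at least 3.09-fold lower in R-type 1.5 Gy tumours (adjusted p = 0.0113). Flanking genes were looked up after these values were seen. On the other side of Cdkn2a, Mtap had a mean of 0.15 ± 0.13 in R-type 1.5 Gy tumours and 0.31 ± 0.21 in S-type 0 Gy tumours (SD, n = 3 each), and beyond Dmrta1, Elavl2 had 4.40 ± 0.06 and 4.18 ± 0.08 in the same order. Neither passed (adjusted p = 0.447 and 0.265). Of the other 5 tested CDK inhibitors, none passed, and Cdkn1a, the p21 gene induced by p53, had a change of 0.00 (adjusted p = 0.997).

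Promoters of 4 of these genes are shown because they are among those with wide contrasts, in both directions, and Cdkn2a is shown at both starts of its gene. The windows run from 250 bases before to 50 bases after the start, from RefSeq on GRCm38.p6, and capitals mark CG pairs, the sites that DNA methylation can use.
Mgarp, chr3:51396498-51396797, minus strand: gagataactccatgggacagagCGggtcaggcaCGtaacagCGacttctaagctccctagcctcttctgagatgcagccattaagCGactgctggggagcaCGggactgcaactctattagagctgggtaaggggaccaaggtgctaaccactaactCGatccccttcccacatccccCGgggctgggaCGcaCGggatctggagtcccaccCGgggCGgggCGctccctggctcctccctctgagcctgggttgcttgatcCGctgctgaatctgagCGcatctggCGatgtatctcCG
Plagl1, chr10:13090582-13090881, plus strand: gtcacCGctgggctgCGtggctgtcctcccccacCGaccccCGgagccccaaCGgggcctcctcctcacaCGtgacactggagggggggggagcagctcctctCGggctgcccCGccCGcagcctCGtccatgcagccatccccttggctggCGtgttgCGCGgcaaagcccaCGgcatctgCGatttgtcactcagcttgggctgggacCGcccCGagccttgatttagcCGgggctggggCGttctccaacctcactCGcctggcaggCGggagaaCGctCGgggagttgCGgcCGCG
Gpat2, chr2:127424949-127425248, plus strand: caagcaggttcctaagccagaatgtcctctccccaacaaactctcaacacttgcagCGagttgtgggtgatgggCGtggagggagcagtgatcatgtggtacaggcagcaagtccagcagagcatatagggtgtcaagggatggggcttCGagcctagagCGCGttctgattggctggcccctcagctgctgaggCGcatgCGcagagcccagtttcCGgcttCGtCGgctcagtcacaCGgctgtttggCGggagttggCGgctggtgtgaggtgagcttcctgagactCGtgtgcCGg
Cdkn2a (upstream start), chr4:89294570-89294869, minus strand: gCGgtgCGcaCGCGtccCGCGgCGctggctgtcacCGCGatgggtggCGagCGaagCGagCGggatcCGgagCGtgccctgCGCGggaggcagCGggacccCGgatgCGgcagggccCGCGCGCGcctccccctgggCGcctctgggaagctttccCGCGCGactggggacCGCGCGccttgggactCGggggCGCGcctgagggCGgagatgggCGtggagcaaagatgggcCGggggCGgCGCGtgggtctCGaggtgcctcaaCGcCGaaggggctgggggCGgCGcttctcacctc
Cdkn2a (downstream start), chr4:89282143-89282442, minus strand: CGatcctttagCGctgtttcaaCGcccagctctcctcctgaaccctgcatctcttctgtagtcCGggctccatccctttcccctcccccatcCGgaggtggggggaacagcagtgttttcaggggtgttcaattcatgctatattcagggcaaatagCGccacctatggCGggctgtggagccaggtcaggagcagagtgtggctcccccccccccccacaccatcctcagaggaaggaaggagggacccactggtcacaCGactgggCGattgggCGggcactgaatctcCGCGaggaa
The upstream start of Cdkn2a, from which the p19Arf transcript begins, held 45 CG pairs, and 1.93% of 32851 promoters held at least as many. Its downstream start, for p16Ink4a, held 12, the number reached by 39.6% of promoters. Plagl1 held 26 (16.9%), Mgarp 16 (33%) and Gpat2 15 (34.6%), where the median promoter held 7 and 94.6% held at least 1. The GLI motif GACCACCCA, searched on both strands, was in none of these 5 windows and in 83 of all promoters (0.253%). CG counts are properties of the reference sequence, and methylation was not measured here.

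Syt4, a synaptotagmin of secretory vesicles, had −4.21, −6.44 and −3.33 in R-type 1.5 Gy tumours and −1.48, −0.23 and −0.10 in S-type 0 Gy tumours, and fell by 4.06 (adjusted p = 0.00386). Slitrk6, a neuronal membrane protein, fell by 3.83 (adjusted p = 0.0111), Shtn1, the axon protein shootin, by 3.13 (adjusted p = 0.00234) and Nap1l2, a nucleosome assembly protein of neurons, by 2.88 (adjusted p = 0.0047). The lowest signals in normal cerebella were 2.47 for Syt4, 2.40 for Shtn1 and 3.11 for Nap1l2, above all 6 tumours for Syt4 and Nap1l2 but not for Shtn1, while Slitrk6 was low there, at −6.32, −4.30 and −6.14. Baiap2l1, an actin regulator, was at least 21.3-fold lower and Edaradd, the adaptor of the ectodysplasin receptor, at least 3.94-fold lower in R-type 1.5 Gy tumours. Their adjusted p was 0.0146 and 0.00813. Frmd5, Ephx4 and Adamtsl1 fell by 3.19, 2.94 and 2.86 (adjusted p = 0.0189, 0.000837 and 0.00859). Ephx4 was uniform within groups, with −4.69, −4.76 and −4.81 in R-type 1.5 Gy tumours and −1.83, −1.65 and −1.96 in S-type 0 Gy tumours. Prl, the pituitary hormone prolactin, had −4.80, −6.27 and −4.66 in R-type 1.5 Gy tumours and −0.58, 1.6 and −2.23 in S-type 0 Gy tumours, and fell by 4.84 (adjusted p = 0.0219). Leaving out 1 array ended the calls of Frmd5 in 3 of 6 fits, of Prl in 2 and of Baiap2l1 in 1. Prl and Edaradd lie on chromosome 13. The other 4 tested pituitary genes did not pass. The log2 of the summed signal of all 5 tested markers was −0.24 to −0.02 in R-type 1.5 Gy tumours and 0.06 to 1.88 in S-type 0 Gy tumours. That sum includes Prl itself, so it is no separate sign of pituitary tissue. The part of pituitary tissue in the Prl change was not tested.

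Of the 30 genes with the widest changes, 29 had the same sign at 0.2 Gy and 7 were called there, 6 of them higher. The change was wider at the dose extremes for 28 of the 30, with a median ratio of 0.39, but the genes were chosen as extremes of this comparison, which by itself favours a smaller value elsewhere. The difference between the contrasts passed for 0 of the 30.

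**Figure D2:**
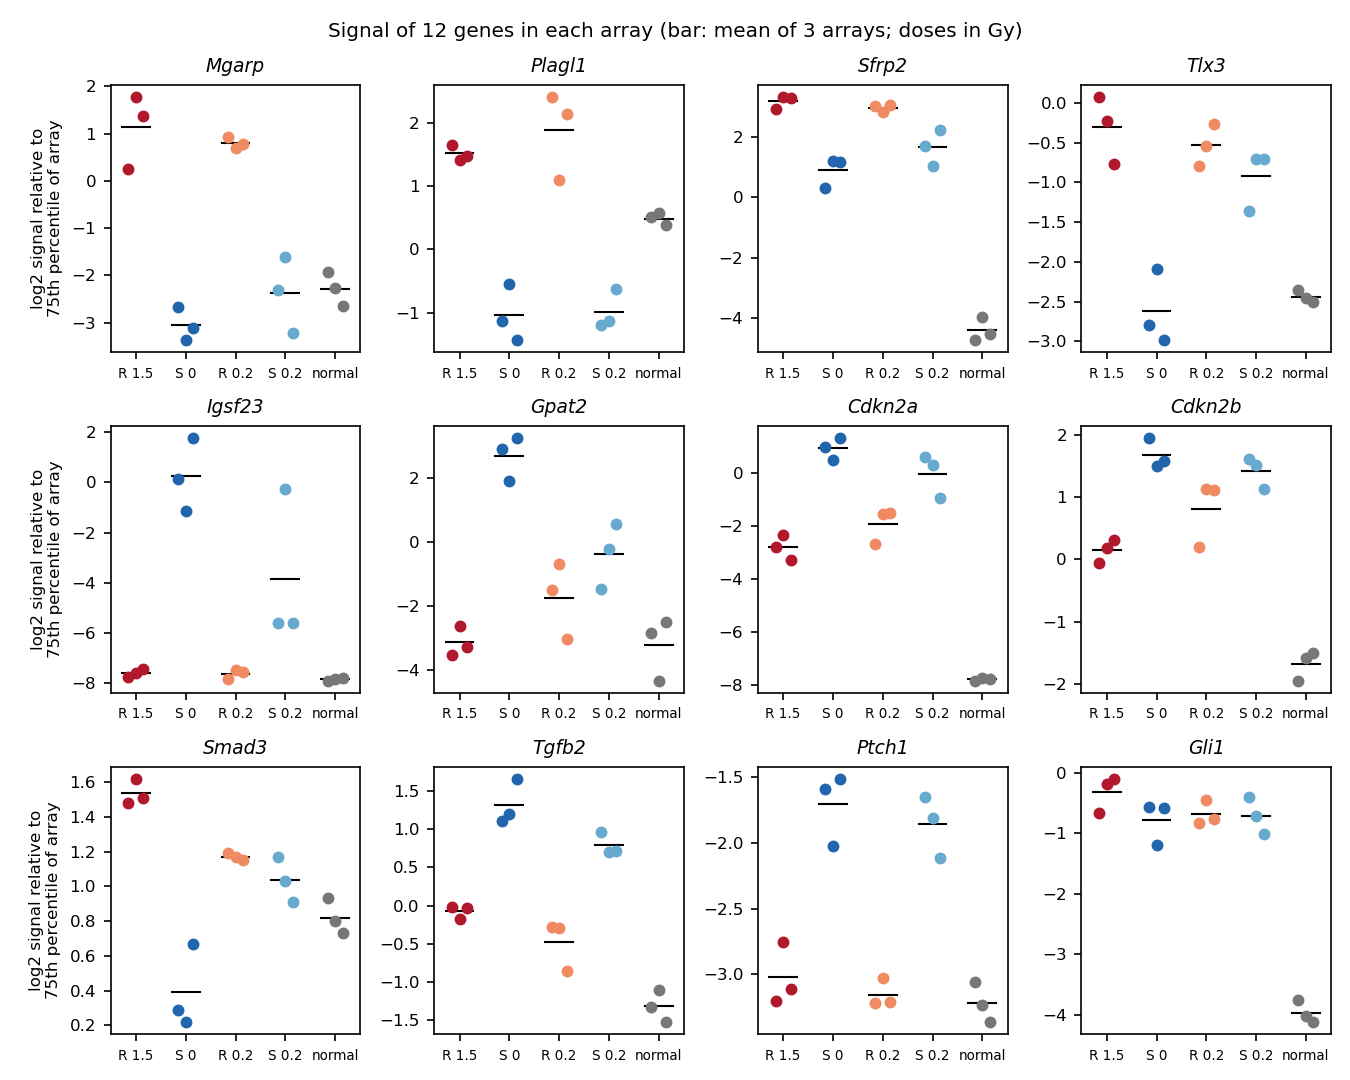
Log2 signal of 12 genes in each of the 15 arrays, scaled by the 75th percentile of each array, with 3 arrays and their mean for each group. In the panel for Gpat2 the 3 R-type 1.5 Gy tumours lie between −3.52 and −2.62 and the 3 S-type 0 Gy tumours between 1.92 and 3.27, while the tumour groups overlap for Gli1.

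Hedgehog genes were examined as the pathway that drives these tumours. Ptch1 itself had −3.20, −2.75 and −3.11 in R-type 1.5 Gy tumours and −1.59, −2.02 and −1.51 in S-type 0 Gy tumours. The groups did not overlap, and the change was −1.31 (SE 0.167, adjusted p = 0.00105), next to −1.29 at 0.2 Gy (adjusted p = 0.00157). Whether its probe lies in the part of the gene disrupted in the mutant allele is not given in the sources used here. Of 24 tested pathway members and targets, 1 was higher and 1 lower (8.33%, against 10.3% of all genes), and 18 had a change above 0, with a median of 0.23. The higher one was Sfrp1, a secreted WNT antagonist known as a target of GLI, with 5.76, 5.85 and 5.53 in R-type 1.5 Gy tumours and 4.93, 4.84 and 4.55 in S-type 0 Gy tumours. It rose by 0.94 (SE 0.153, adjusted p = 0.00356), and its change at 0.2 Gy was −0.03.

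Gli1, a direct target and effector, had −0.67, −0.18 and −0.10 in R-type 1.5 Gy tumours and −0.57, −1.19 and −0.59 in S-type 0 Gy tumours, a change of 0.46 (SE 0.216, adjusted p = 0.196). The difference was 1.00 for Hhip, which binds and traps the ligand (adjusted p = 0.0707), and 0.23 for Mycn, a driver of precursor division (adjusted p = 0.12), and none of these 3 passed. Gli1 and Mycn were far higher in all 6 tumours than in the normal cerebella, where Gli1 lay between −4.11 and −3.75 and Mycn between −1.70 and −1.57.

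Few genes of the cell cycle passed, and more of DNA repair. Of 27 tested genes of DNA replication, 2 rose and none fell (7.41%, median 0.20), and 24 had a change above 0. The helicase subunit Mcm5 rose by 0.43 (adjusted p = 0.0479) and the replisome subunit Gins2 by 0.59 (adjusted p = 0.0247). No gene of 20 for mitosis passed (median 0.11), and 15 had a change above 0. Of 22 repair genes, 4 rose and 1 fell (22.7%, against 10.3% of all genes, median 0.15), and 15 had a change above 0. Mre11a and Nbn, partners in the complex that senses double-strand breaks, rose by 0.59 (adjusted p = 0.00761) and 0.29 (adjusted p = 0.0352), and Atm, the kinase that this complex activates, by 0.31 (adjusted p = 0.0308). Atm was narrow in both groups, with 0.33, 0.22 and 0.26 in R-type 1.5 Gy tumours and 0.08, −0.12 and −0.08 in S-type 0 Gy tumours. The repair gene that fell, Fancc of the Fanconi anaemia pathway, lies beside Ptch1. In the p53 list of 25, Sesn1 rose by 0.44 and Btg2 fell by 0.79 (8%, median 0.00). Single arrays decided some of these counts, which ranged from 0 to 6 for replication, from 1 to 4 for repair and from 0 to 3 for p53 when 1 array was left out.

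TGF-beta and BMP signalling held both directions. Of 32 tested members, 3 rose and 3 fell (18.8%, median 0.05). The ligands moved apart. Tgfb2 had −0.02, −0.17 and −0.03 in R-type 1.5 Gy tumours and 1.10, 1.2 and 1.66 in S-type 0 Gy tumours, and fell by 1.40 (SE 0.184, adjusted p = 0.00125), with a fall by 1.27 at 0.2 Gy (adjusted p = 0.00327). Tgfb3 had 0.49, 0.45 and 0.24 in R-type 1.5 Gy tumours and −0.62, −0.68 and −1.10 in S-type 0 Gy tumours, and rose by 1.2 (SE 0.175, adjusted p = 0.00215). Smad3, which carries the TGF-beta signal to the nucleus, had 1.48, 1.62 and 1.51 in R-type 1.5 Gy tumours and 0.29, 0.22 and 0.67 in S-type 0 Gy tumours. It rose by 1.15 (SE 0.114, adjusted p = 0.00027), and its 2 tested probes gave 0.66 and 1.15. At 0.2 Gy its change was 0.13 (adjusted p = 0.537), without a call for the difference between the contrasts (adjusted p = 0.0974). On the BMP side, the effector Smad5 fell by 0.57 and the receptor Bmpr2 by 0.37, and the extracellular antagonist Chrd rose by 0.84 (adjusted p = 0.0033, 0.0158 and 0.0132). Smad5 lies on chromosome 13.

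In the Notch list of 21, 1 rose and 1 fell (9.52%, median 0.24). Hey1, a transcriptional repressor induced by Notch, had 5.64, 5.92 and 5.6 in R-type 1.5 Gy tumours and 5.01, 4.65 and 4.82 in S-type 0 Gy tumours, and rose by 0.89 (SE 0.127, adjusted p = 0.00187). Mfng, a glycosyltransferase that modifies Notch receptors, had 0.44, 0.72 and −0.04 in R-type 1.5 Gy tumours and 1.94, 1.95 and 2.49 in S-type 0 Gy tumours, and fell by 1.76 (SE 0.249, adjusted p = 0.00187). With median centring the list held 5 calls. Of 22 WNT genes, 2 rose and 2 fell (18.2%, median −0.03). Beside Sfrp2, Tcf7l2, a transcriptional effector of beta-catenin, rose by 1.19 (adjusted p = 0.0137), and its 2 tested probes gave 0.62 and 1.19. Nkd1 and Apcdd1, inhibitors of the pathway, fell by 0.65 (adjusted p = 0.00789) and 0.74 (adjusted p = 0.0231).

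Of 14 tested genes of the IGF system, 3 rose and none fell (21.4%, median 0.52). Igf1r, the receptor, had 2.23, 2.12 and 2.22 in R-type 1.5 Gy tumours and 1.6, 1.32 and 1.22 in S-type 0 Gy tumours, and rose by 0.81 (SE 0.114, adjusted p = 0.00182). Its 3 tested probes gave 0.77 to 1.08. Igfbp4, a binding protein, rose by 0.99 (adjusted p = 0.0314), and Igf2r, the imprinted receptor that clears IGF2, by 0.91 (adjusted p = 0.0461). The ligand Igf2 had 1.76, 0.47 and 1.07 in R-type 1.5 Gy tumours and 0.73, 1.97 and −0.70 in S-type 0 Gy tumours, overlapping, with a change of 0.43 (SE 0.621, adjusted p = 0.696). In R-type tumours at 0.2 Gy it had 4.39, 3.08 and 4.14, and the change there was 2.86 (adjusted p = 0.026), with no call for the difference between the contrasts (adjusted p = 0.59). Igf2 is imprinted, as is Cdkn1c, another growth regulator, which had a change of 0.47 (adjusted p = 0.455). In the imprinted list of 21, 2 rose and 1 fell (14.3%, median 0.08), the third call being Ppp1r9a, for which 1 of 3 probes had the opposite sign.

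Of 21 genes of hypoxia and glycolysis, 3 rose and none fell (14.3%), 19 had a change above 0, and the median was 0.51. They were Slc2a1, the glucose transporter GLUT1, which rose by 0.65 (SE 0.121, adjusted p = 0.00719), and the glycolytic enzymes Tpi1 and Eno1, which rose by 0.73 (adjusted p = 0.0298) and 0.78 (adjusted p = 0.0352). Slc2a1 had 2.67, 2.63 and 2.47 in R-type 1.5 Gy tumours and 1.91, 2.11 and 1.79 in S-type 0 Gy tumours, without overlap. The medians of this list were 0.37, 0.91 and 0.29 in MB10, MB11 and MB12 relative to the S-type mean, so that MB11 was highest, and no member passed with no scaling. Of 8 heat shock genes, Hspa1a and Hspa1b, near-identical genes whose probes may share transcripts, rose by 1.54 and 1.48 (adjusted p = 0.0396 and 0.0327), and the count was 0 in some fits without 1 array.

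Cytosolic ribosomal protein genes, whose products form the ribosome, were mostly higher in the R-type 1.5 Gy tumours. Of 81 tested, 35 rose and none fell (43.2%, against 10.3% of all genes in either direction), 79 had a change above 0, and the median was 0.31. In 68 of them each R-type 1.5 Gy tumour lay above each S-type 0 Gy tumour, where 26% of all tested genes had groups that did not overlap in either direction. Changes were small, from 0.30 to 0.59 among those that passed. Rpl35 had 6.36, 6.47 and 6.30 in R-type 1.5 Gy tumours and 5.99, 5.85 and 6.04 in S-type 0 Gy tumours, and rose by 0.42 (SE 0.0787, adjusted p = 0.0079). Rps15 rose by 0.56 (adjusted p = 0.00858), Rpl10 by 0.45 (adjusted p = 0.00747) and Rpl17 by 0.43 (adjusted p = 0.00409). At 0.2 Gy 78 of the 81 were above 0, with a median of 0.24. The count depended on the processing, with 12 calls after quantile normalization, 14 after median centring, 1 with no scaling, and 8 to 39 without 1 array. The log2 of the summed signal of the list was 13.03 to 13.22 in R-type 1.5 Gy tumours and 12.65 to 12.88 in S-type 0 Gy tumours.

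Respiratory chain subunits shifted less. Of 79 tested, 3 rose and 3 fell (7.59%, median 0.06). A change above 0 was seen in 57 of the 79, against 11400 of all 21661 tested genes. Cox7a1 of complex IV rose by 0.60, and Atp5g2 and Atp5d of the ATP synthase by 0.37 and 0.26 (adjusted p = 0.0108, 0.0286 and 0.0467). The 3 that fell were Ndufs6 of complex I, Sdha of complex II and Uqcrb of complex III, by 0.87, 0.56 and 0.84 (adjusted p = 0.000202, 0.0116 and 0.0361), and all 3 lie on chromosome 13.

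**Figure D3:**
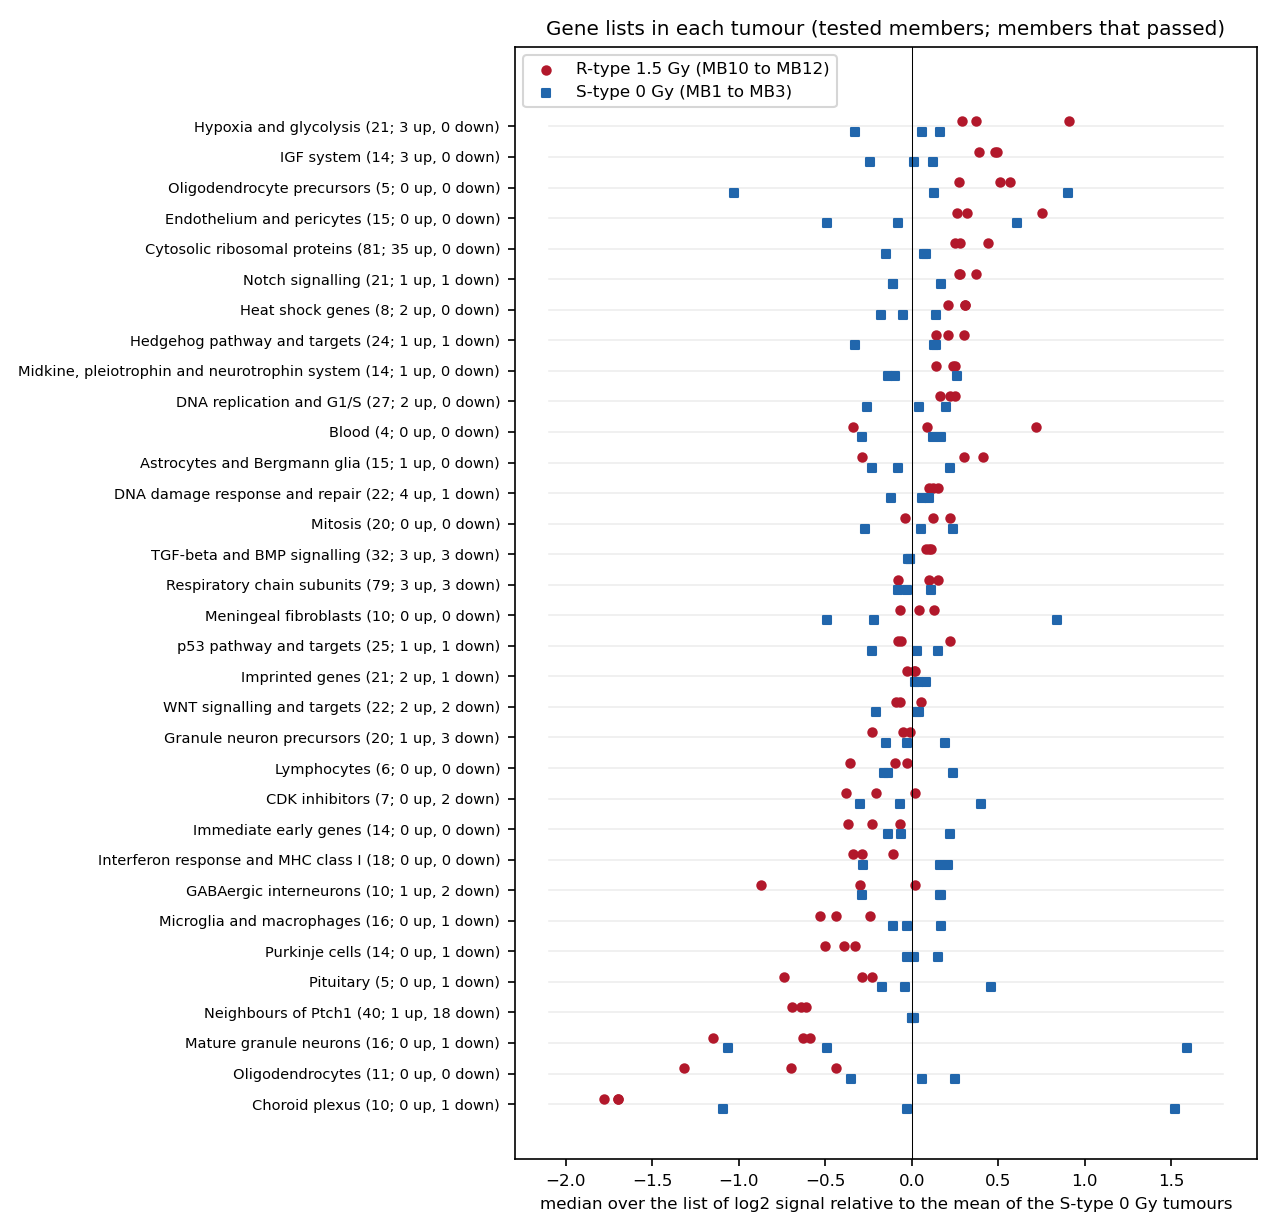
For each gene list, the median over its tested members of the log2 signal relative to the mean of the 3 S-type 0 Gy tumours, with R-type 1.5 Gy tumours as circles and S-type 0 Gy tumours as squares. The labels give the tested members and those that passed higher or lower. Ribosomal proteins lie at 0.25 to 0.44 in R-type 1.5 Gy tumours and −0.15 to 0.08 in S-type 0 Gy tumours.

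Markers of granule neuron precursors and of other cells that a tumour sample could hold were set out in the same way. In bulk tissue fewer cells of a type and less RNA per cell cannot be told apart. Of 20 precursor genes, 1 rose and 3 fell (20%, median −0.13). Pax6, a homeobox factor of the granule lineage, had 2.22, 1.71 and 2.27 in R-type 1.5 Gy tumours and 0.25, 1.14 and 0.62 in S-type 0 Gy tumours, and rose by 1.40 (SE 0.217, adjusted p = 0.00288). Sox4, Zic2 and Barhl1, transcription factors of immature neurons and precursors, fell by 1.21, 0.76 and 0.56 (adjusted p = 0.00956, 0.00231 and 0.0335), and Sox4 lies on chromosome 13. Zic2 was tight in R-type 1.5 Gy tumours, with −1.04, −1.03 and −1.06, against −0.11, −0.26 and −0.47 in S-type 0 Gy tumours. It was also the only gene called between S-type tumours at 0.2 Gy and at 0 Gy, lower by 0.99 (adjusted p = 0.041), and its type change at 0.2 Gy was 0.18.

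Of 16 markers of mature granule neurons 1 fell (6.25%, median −0.57), Slc17a7, the vesicular glutamate transporter, by 3.22 (adjusted p = 0.0499). Its signals were −7.78, −7.59 and −4.99 in R-type 1.5 Gy tumours and −2.84, −2.03 and −5.84 in S-type 0 Gy tumours, so that MB12 lay above MB3. MB2 stood above the other S-type tumours in this list, with a median of 1.59, against −0.49 in MB1 and −1.06 in MB3. The log2 of the summed signal of these markers was 5.34 to 5.69 in R-type 1.5 Gy tumours and 5.12 to 6.08 in S-type 0 Gy tumours. Of 14 Purkinje cell markers 1 fell (7.14%, median −0.44), Pcp4 by 1.26 (adjusted p = 0.0442), and the summed signal was 3.08 to 3.18 in R-type 1.5 Gy tumours and 3.31 to 3.60 in S-type 0 Gy tumours. Of 10 markers of GABAergic interneurons 1 rose and 2 fell (30%, median −0.76). Lhx1 fell by 0.67 (adjusted p = 0.0103) and Nxph1 by 1.14 (adjusted p = 0.0319).

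Choroid plexus markers differed most in median, at −1.97, with 1 of 10 passing (10%). This was Clic6, which fell by 2.51 (adjusted p = 0.0247). Ttr, transthyretin, the defining product of that epithelium, was not well above background in any R-type 1.5 Gy tumour, at −7.54, −7.36 and −7.19, and had −7.63, −0.09 and −2.11 in S-type 0 Gy tumours. Its signal was thus high in MB2 and MB3 but not in MB1, and its change did not pass (adjusted p = 0.0994). The summed signal of the list was 0.98 to 1.56 in R-type 1.5 Gy tumours and 1.78 to 3.75 in S-type 0 Gy tumours. Array medians of the list were −1.7, −1.7 and −1.78 in MB10, MB11 and MB12, against −1.09, 1.52 and −0.03 in MB1, MB2 and MB3, so that the S-type tumours differed widely among themselves. Without MB1, 5 markers passed lower, without MB2 1 passed higher and 1 lower, and without MB10 or MB11 none passed. The share of genes called that rests on choroid plexus in these samples was not tested.

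Among glia and stroma few markers passed. Sox9, of Bergmann glia and astrocytes, rose by 0.49 (adjusted p = 0.0372), 1 of 15 such markers (6.67%). Cx3cr1, the fractalkine receptor of microglia, had −0.85, −0.96 and −0.93 in R-type 1.5 Gy tumours and −0.12, −0.34 and −0.44 in S-type 0 Gy tumours, and fell by 0.61 (SE 0.108, adjusted p = 0.00522). It was 1 of 16 microglial markers to pass (6.25%), and 1 of the 16 had a change above 0 (median −0.39, summed signal 5.36 to 5.70 in R-type 1.5 Gy tumours and 5.77 to 6.06 in S-type 0 Gy tumours). None passed of 15 markers of endothelium and pericytes (median 0.45), 11 of oligodendrocytes (median −0.75), 5 of their precursors (median −0.12), 10 of meningeal fibroblasts (median −0.16), 6 of lymphocytes (median −0.29) or 4 of blood (median 0.20). The oligodendrocyte markers Mog and Opalin were not well above background in any of the 6 tumours. Without MB1, 5 endothelial and pericyte markers passed higher, and 14 of the 15 had a change above 0. None of 18 interferon response genes (median −0.29) or 14 immediate early genes (median −0.26) passed, and leaving out 1 array gave at most 2 calls in either list and at most 1 in those of oligodendrocytes and their precursors. In the list of midkine, pleiotrophin and neurotrophin genes, 1 of 14 rose (7.14%, median 0.18), the receptor kinase Alk, by 0.80 with an adjusted p of 0.0499. Leaving out 1 array ended the calls of Atm, Gins2, Igf2r and Alk in 5 of 6 fits. It ended those of Mcm5, Sesn1, Tpi1, Eno1, Igfbp4, Apcdd1, Barhl1, Slc17a7, Pcp4 and Sox9 in 4, those of Ppp1r9a, Nxph1 and Atp5g2 in 3, those of Clic6 in 2 and those of Fancc and Btg2 in 1.

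Chromosome 13, which carries Ptch1, differed from all others. Of its 483 tested genes 141 were called (29.2%), 124 of them lower in R-type 1.5 Gy tumours and 17 higher, with a median of −0.31. On the other chromosomes 5.2% to 11.8% were called, and of their 12945 genes together 1256 (9.7%), 760 higher and 496 lower. The type labels are tied to this region, so that the direction here is no independent result, and what follows describes its extent in each tumour.

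Placed in the RefSeq order and taken in blocks of 20, genes of blocks 9 to 17 had lower signals in all 3 R-type 1.5 Gy tumours. Block medians there, relative to the S-type mean, lay between −0.87 and −0.40 in MB10, MB11 and MB12 and between −0.17 and 0.18 in the S-type 0 Gy tumours. This stretch, from Gfod1 to Glrx, held 180 tested genes, of which 99 were called lower and 2 higher. In MB11 the low signals began sooner, at −0.607 in block 5 and −0.849 in block 6, and ended later, at −0.983 in block 18. The median of MB12 was low from block 8, at −0.746, while MB10 stood at 0.081 there. Within block 7, genes from Prpf4b, at −0.745, to Fars2, at −0.652, were already low in MB12. In block 18 the median of MB12 was −0.207, with Rhobtb3 at −0.593 and Rfesd at −0.851, but Lysmd3 at 0.006 and Ccnh at 0.123. Blocks 19 to 23 lay between −0.12 and 0.14 in all 3 R-type 1.5 Gy tumours. Block 24 lay between −0.211 in MB11 and −0.01 in MB10, with 6 lower and no higher calls among its 20 genes, and the last block, of 3 genes, had −0.38 in MB10, 0.399 in MB11 and 0.152 in MB12. Blocks 1 to 4 lay between −0.08 and 0.32.

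Around Ptch1, 40 neighbours, 20 on each side, held 1 higher and 18 lower calls (47.5%, median −0.66). Their medians were −0.694, −0.634 and −0.603 in MB10, MB11 and MB12, against −0.006, 0.002 and 0.014 in MB1, MB2 and MB3. Tut7, which adds uridines to RNA, had −0.77, −0.92 and −1.09 in R-type 1.5 Gy tumours and 0.16, 0.26 and 0.19 in S-type 0 Gy tumours, and fell by 1.13 (SE 0.0886, adjusted p = 9.18e-05). Isca1, an iron-sulfur cluster protein, fell by 0.81 (adjusted p = 0.000212), Habp4 by 1.2 (adjusted p = 0.000275) and the kinase gene Cdk20 by 0.92 (adjusted p = 0.000288). The one higher was Zfp369, a zinc finger gene, at 0.37 (adjusted p = 0.00894).

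The extent in the R-type tumours at 0.2 Gy was different. There the neighbours of Ptch1 had medians of −0.273, −0.582 and −0.127 in MB7, MB8 and MB9, against 0.021, 0.056 and −0.004 in MB4, MB5 and MB6. MB7 and MB9 had −0.628 and −0.551 in block 1, −0.176 and 0.072 in block 4, and −0.233 and −0.302 in block 5. They had −0.841 and −0.845 in block 6 and 0.073 and 0.205 in block 16. The medians of blocks 4 and 5 include many histone genes. Some other genes there were low in MB7 and MB9, such as Zfp184 at −1.186 and −1.078 and Gmnn at −0.943 and −0.767. Others were not, such as Prss16 at 0.016 and 0.167. In MB1, MB2 and MB3, however, Prss16 had −0.172, −0.267 and 0.438, and Fbxl21 of block 13 nearly the same, at −0.131, −0.273 and 0.404. Prss16 may thus have been near background, which was not tested, and nothing is read from it. Whether the low stretch is interrupted cannot be read from these block medians. MB8 was low from block 9 to block 16, at −0.754 and −0.749, and stood at 0.092 in block 17.

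**Figure D4:**
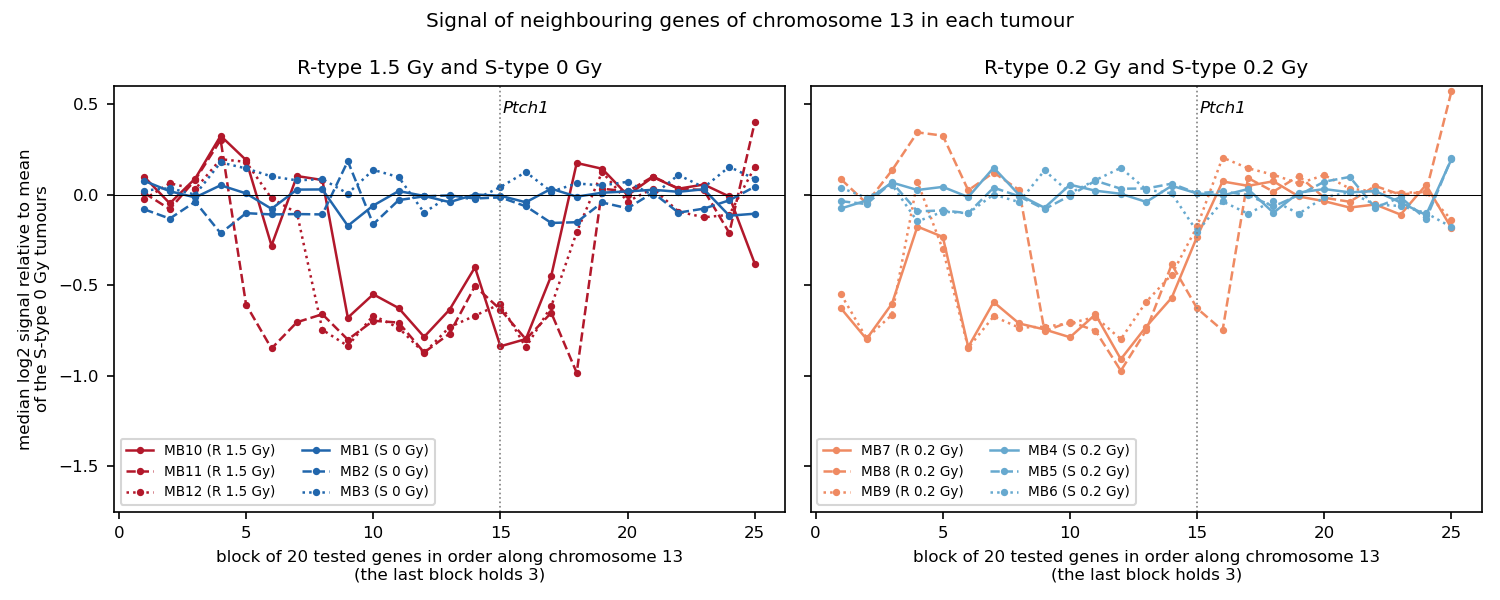
Median log2 signal of blocks of 20 tested genes in order along chromosome 13, relative to the mean of the S-type 0 Gy tumours, with 1 line for each tumour. On the left the 3 R-type 1.5 Gy tumours lie between −0.87 and −0.40 in blocks 9 to 17 and the S-type 0 Gy tumours between −0.17 and 0.18. On the right the R-type 0.2 Gy tumours have other borders, and the dotted line marks the block of Ptch1.

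The 4 genes whose type change differed between the dose extremes and 0.2 Gy all lie in blocks 16 and 17, beyond Ptch1. Ndufs6 had 3.08, 3.08 and 2.89 in R-type 1.5 Gy tumours and 3.83, 3.83 and 3.99 in S-type 0 Gy tumours, a fall by 0.87 (SE 0.0794, adjusted p = 0.000202). At 0.2 Gy it had 3.98, 3.97 and 4.08 in R-type tumours and 3.93, 3.84 and 3.84 in S-type tumours, and the difference between the contrasts was −1.01 (adjusted p = 0.0304). The same pattern held for Brd9, a bromodomain protein of chromatin remodelling complexes, with a fall by 0.97 at the dose extremes, a change of −0.01 at 0.2 Gy and a difference of −0.96 (adjusted p = 0.0464). Zfp825, a zinc finger gene, and Pdcd6, a calcium-binding protein, fell by 0.72 and 0.71, with 0.15 and 0.07 at 0.2 Gy and differences of −0.87 and −0.78 (adjusted p = 0.0464 for both). Set directly against R-type tumours at 0.2 Gy, R-type 1.5 Gy tumours were lower by 0.99 for Ndufs6, 0.91 for Brd9, 0.83 for Zfp825 and 0.81 for Pdcd6 (adjusted p = 0.000861, 0.00107, 0.00142 and 0.00106). That comparison, which shares the R-type 1.5 Gy arrays with the main one, called 15 genes (0.0692%), 14 of them lower. Its count was 25 without MB10, 28 without MB11, 159 without MB8 and 9 without MB9. Between S-type tumours at 0.2 Gy and 0 Gy, 1 gene passed (0.00462%), Zic2, and the count was 20 without MB1, 2 without MB5 and 0 without MB4 or MB6.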

How the data were processed

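RNA from 12 tumours and 3 normal cerebella was hybridised to one-colour mouse arrays, 1 array for each sample. The authors deposited scanner files whose processed intensity for each spot is background-corrected, and the submitters' processing notes name version 9.5.1 of Agilent's Feature Extraction as the tool. They also deposited a log2 series table, of which 15 columns served as an alternative, and whose differences between arrays correlated with those of the scanner files at 0.99985 to 0.99999.

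Spots of 1 probe were averaged, and log2 of the processed intensity was scaled to the 75th percentile of its array. Of 41174 probes, 76 were left out as outliers, and 24844 were named through RefSeq accessions, giving 17178 symbols. The brightest probe stood for a gene, and 21661 of 32628 names were tested, being well above background on at least 3 of 15 arrays. Array coordinates follow another mouse build than the GRCm38.p6 tables and are not printed.

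All 5 groups shared 1 fit in limma 3.58.1 (R 4.3.3, 10 residual and 1.7 prior degrees of freedom), with Benjamini-Hochberg adjustment at 0.05. The fit was tested on simulated data. An exact permutation test of 3 against 3 cannot go below 0.1, so none was used. Nothing states more than 1 sample for each mouse. The p-values rest on a spread within groups pooled over all 15 arrays, normal cerebella included, and not on that of the 6 tumours alone. The number of arrays limits the precision. The members and gene lists were chosen with earlier results of these data known. Named genes are Ptch1, the 15 highest and 15 lowest changes among genes that passed with groups not overlapping and the higher group well above background, up to 4 members of each list with the smallest adjusted p, up to 4 at each end of the difference between contrasts, and 9 reference genes. Other list members that passed were named after their values were seen. Of 91 named genes 34 had several probes, and for 1 a probe had the opposite sign. Alternatives changed the background correction, scaling, filter, probe rule, arrays fitted and slide term, used the deposited table, or left out 1 array. Leaving out arrays at 0.2 Gy was chosen after seeing the data. The labels do not explain the letters of the types. Some genes that the rule names are not reported here.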

Additional observations from a re-analysis of the deposited data

Results flagged for a closer look

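The R-type minus S-type contrast at the dose extremes differed from that at 0.2 Gy, by a test of the difference itself in limma with Benjamini-Hochberg adjustment, for 4 genes of chromosome 13. The difference was −1.01 for Ndufs6 (adjusted p = 0.0304). For Brd9 it was −0.96, for Zfp825 −0.87 and for Pdcd6 −0.78 (adjusted p = 0.0464 for each of these 3). In each of the 4 genes every R-type 1.5 Gy tumour lay below every other tumour.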

How the results depend on the processing

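No alternative called a gene in the opposite direction to the 2226 genes of R-type 1.5 Gy against S-type 0 Gy, except 1 gene with the mean of all probes. The count was 1404 with no filter on dim probes, 50 with only the 6 arrays and 1371 with the 12 tumour arrays, and leaving out 1 array gave 1143 to 2471. Of the 50, 49 were among the 2226. With slide as a fixed term it was 1987 and as a random block 2430. At 0.2 Gy the 1052 calls became 645 with median centring, 2673 with no scaling, 534 with no filter, 401 with the 12 tumours and 450 with slide as a fixed term, and 298 to 943 without 1 array. The 4 genes that differed between the contrasts became 1 in the deposited table and 0 with median centring, no scaling, no filter, the 12 tumours or slide as a fixed term, and 0 to 68 without 1 array. R-type 1.5 Gy against R-type 0.2 Gy gave 0 with median centring and 9 to 159 without 1 array. S-type 0.2 Gy against 0 Gy gave 2 with quantile normalization, 4 with median centring, 3 in the deposited table, 3 with slide as a random block, 0 with no scaling, no filter, the 12 tumours or slide as a fixed term, and 0 to 20 without 1 array. The causes were not tested. Igf2, which did not pass, lay between −0.25 (without MB3) and 1.09 (without MB2) when 1 array was left out. Of 85 named genes that passed, 57 passed in all 6 fits without 1 array and 12 under every alternative. No paired analysis was possible because the groups compared share no replicate number in the labels. Signals not well above background give bounds only.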

Other observations

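Genes of the germ line were looked up after Gpat2 was seen among the lowest changes, so their list was chosen on these data and is given as values only. Of 41 listed, 19 were tested, 9 passed lower and 1 passed higher in R-type 1.5 Gy tumours, where 5.19% of all tested genes passed lower and 5.08% higher, and the median change was −1.57. The list was built around a gene already seen to be low, so nothing is read from that count. Brdt, a bromodomain protein of the testis, averaged −3.73 ± 0.10 in R-type 1.5 Gy tumours and −2.1 ± 0.04 in S-type 0 Gy tumours (SD, n = 3 each), and Tex36 averaged −5.33 ± 0.34 and −2.97 ± 0.54 in the same order. Smc1b, a cohesin subunit of meiosis, fell by 2.56, Cyct, the testis cytochrome c, by 2.39, and Tex101, a germ cell surface protein, was at least 4.79-fold lower. Ddx4, a helicase of germ cells that lies on chromosome 13, was not well above background in any R-type 1.5 Gy tumour and was at least 1.27-fold lower. The X-linked genes Xlr3c and Xlr4b, members of a family of near-identical copies whose probes may share transcripts, fell by 2.75 and 2.83, and at 0.2 Gy had changes of 1.05 and 0.97 that did not pass. The one that passed higher was Sohlh2, a germ cell transcription factor, at 0.57.

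Replication-dependent and linker histone genes were looked up after H3c1 was seen among the highest changes, so this list too was chosen on these data. Of 29 tested, 8 passed higher and none lower, where 5.08% of all tested genes passed higher, and the median was 0.42. H3c1 is itself among the 8, so nothing is read from that count. Also among them, H2bc1, H2bc12 and H2bc14 had nearly equal changes of 0.96, 0.99 and 0.96. All 8 that passed lie on chromosome 13, as do 21 of the 29 tested. H2bc1 averaged 2.02 ± 0.29 in R-type 1.5 Gy tumours and 1.06 ± 0.14 in S-type 0 Gy tumours, and H1f3 averaged −0.52 ± 0.21 and −1.76 ± 0.58 in the same order (SD, n = 3 each). Histone genes are close in sequence, and signal may be shared between copies.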
